A study of Mus musculus with 6 samples.

Results

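The genes described here are 10 members of the canonical Wnt pathway: Lef1, Tcf7, Tcf7l1, Notum, Ccnd2, Axin2, Sp5, Nkd1, Dkk1 and Ctnnb1. They were followed in the mouse embryonic stem cell line E14, in 3 control arrays and 3 arrays of cells with a knockdown of Tdg, the thymine DNA glycosylase gene. Each gene was read from the probe set that the platform assigns to it alone, by the highest mean level where several exist. This gave 9 of the 10 members a value, each from 1 probe set, among 19938 named genes. The signal of Tcf7 was not analysed here, since the platform annotation used gave it no probe set.

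All 6 samples came from one cell line kept on 0.1% gelatin in medium with 15% serum and leukemia inhibitory factor at 1000 units/ml. The protocol given for every sample was infection with lentiviral vectors at a multiplicity of 10 and puromycin at 2 ug/ml from 48 h onward. The labels name neither the control vector nor the sequence used against Tdg, and where the titles name Tdg the extraction protocol names Kdm2b. The mean of the 4 probe sets shared by Tdg and its pseudogene fell from 11.12, 11.20 and 11.10 to 8.24, 8.15 and 7.92, or 12.2% of the control signal (limma adjusted p 8.79e-05). How much of the remaining signal is Tdg transcript, pseudogene or background was not tested. Since no label states whether replicates were grown as separate cultures, the spread behind every p-value is that of these samples and may be technical only. In whole-culture RNA, fewer cells expressing a gene and less RNA per cell cannot be told apart.

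Wnt proteins are secreted lipid-modified ligands that bind Frizzled receptors together with an LRP co-receptor. Binding stalls the complex that marks beta-catenin, the product of Ctnnb1, for destruction, and beta-catenin then enters the nucleus and joins DNA-binding proteins of the TCF/LEF family at target genes. Several targets, Axin2, Nkd1, Dkk1 and Notum among them, encode inhibitors that feed back on the pathway. In embryonic stem cells Wnt signalling is known to favour self-renewal, in part by lifting repression by Tcf7l1.

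Of the 9 measured members, Lef1, Notum and Ccnd2 were higher in knockdown cells, by 0.49, 0.54 and 0.44 on the log2 scale. These are 1.41-fold, 1.45-fold and 1.35-fold. The other 6, among them the feedback targets Axin2, Nkd1 and Dkk1 and the effector gene Ctnnb1, differed by -0.16 to 0.05 and did not pass the threshold. The threshold was an adjusted p of 0.05 over all named genes (limma, Benjamini-Hochberg), and 0.792% of all named genes passed it in either direction and 0.241% as higher and 0.552% as lower. The members were chosen by role in the pathway with this comparison's differences and adjusted p already known, and Lef1, Notum and Ccnd2 were selected on having passed. Their count, 3 of 9, is therefore a description, and nothing is read from it.

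The members were examined for the TCF/LEF core motif in the 250 bases before each transcription start in RefSeq's GRCm38.p6 promoters. Some of these starts lie inside the annotated gene. The letters searched, on both strands, were CTTTG followed directly by AA, AT, TA or TT. The table held 13 windows for 8 of the 10 members, with no entry for Notum or Ccnd2. At least 1 match stood in 3 of the 13 windows (23.1%), against 14.8% of 32851 windows of all genes and 12.7% of 19177 windows of measured genes. Some windows of the same gene overlap. By gene, 3 of 8 members held a match in any window, against 16.8% of 27025 genes. The windows shown are those of Lef1, the called member with an entry, at its first and at an internal start, and those of Sp5 and Dkk1, the uncalled members that hold matches. Matches are in capitals, and each sequence runs 5′ to 3′ toward the start.
Lef1 first start, chr3:131110047-131110296, plus strand: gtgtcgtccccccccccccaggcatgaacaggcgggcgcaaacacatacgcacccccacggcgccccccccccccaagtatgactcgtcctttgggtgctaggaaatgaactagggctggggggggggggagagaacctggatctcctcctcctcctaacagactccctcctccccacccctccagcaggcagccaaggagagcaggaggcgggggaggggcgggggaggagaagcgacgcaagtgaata
Lef1 internal start, chr3:131156044-131156293, plus strand: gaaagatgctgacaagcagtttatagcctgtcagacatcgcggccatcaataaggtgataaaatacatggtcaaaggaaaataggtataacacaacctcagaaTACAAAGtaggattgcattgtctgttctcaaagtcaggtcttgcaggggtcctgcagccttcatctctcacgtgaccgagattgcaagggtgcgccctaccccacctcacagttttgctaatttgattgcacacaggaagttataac
Sp5, chr2:70474673-70474922, plus strand: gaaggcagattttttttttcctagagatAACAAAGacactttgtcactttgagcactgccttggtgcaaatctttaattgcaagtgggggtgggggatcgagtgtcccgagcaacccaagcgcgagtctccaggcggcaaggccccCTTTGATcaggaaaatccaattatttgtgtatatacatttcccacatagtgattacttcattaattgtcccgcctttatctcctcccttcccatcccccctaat
Dkk1, chr19:30549497-30549746, minus strand: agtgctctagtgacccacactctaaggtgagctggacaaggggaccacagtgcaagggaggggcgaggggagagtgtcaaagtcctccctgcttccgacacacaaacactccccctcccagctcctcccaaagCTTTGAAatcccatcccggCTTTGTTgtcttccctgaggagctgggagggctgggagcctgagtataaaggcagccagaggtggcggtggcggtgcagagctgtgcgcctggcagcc

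The window before the first Lef1 start held no match, and that of the internal start, which lies inside the annotated gene, held TACAAAG, the reverse complement of CTTTGTA, 141 to 147 bases before it. In Sp5 a match to the reverse complement lay 216 to 222 bases and one on the strand shown 98 to 104 bases before the start. In Dkk1 both matches were on the strand shown, at 111 to 117 and 92 to 98 bases. The Lef1 windows not shown and those searched for Tcf7, Tcf7l1, Axin2, Nkd1 and Ctnnb1 held none of these letters. Every window of Tcf7, Axin2 and Nkd1 lies inside the annotated gene, so the bases before its outer end were not searched. Sp5 and Dkk1, with 2 matches each, did not pass the threshold in the comparison of signals. A match is a run of letters and no evidence of binding, and sequence outside the windows was not searched. CpG dinucleotides, the sites of the cytosine oxidation named in the series title, numbered 35 and 43 in the Ctnnb1 windows, 15 and 37 in those of Tcf7, 29 in that of Tcf7l1 and 24 in that of Axin2. The 4 Lef1 windows held 11, 14, 6 and 5, and Sp5, Nkd1 and Dkk1 held 6 each. The median was 6 over all windows and 11 over those of measured genes.

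**Figure D1:**
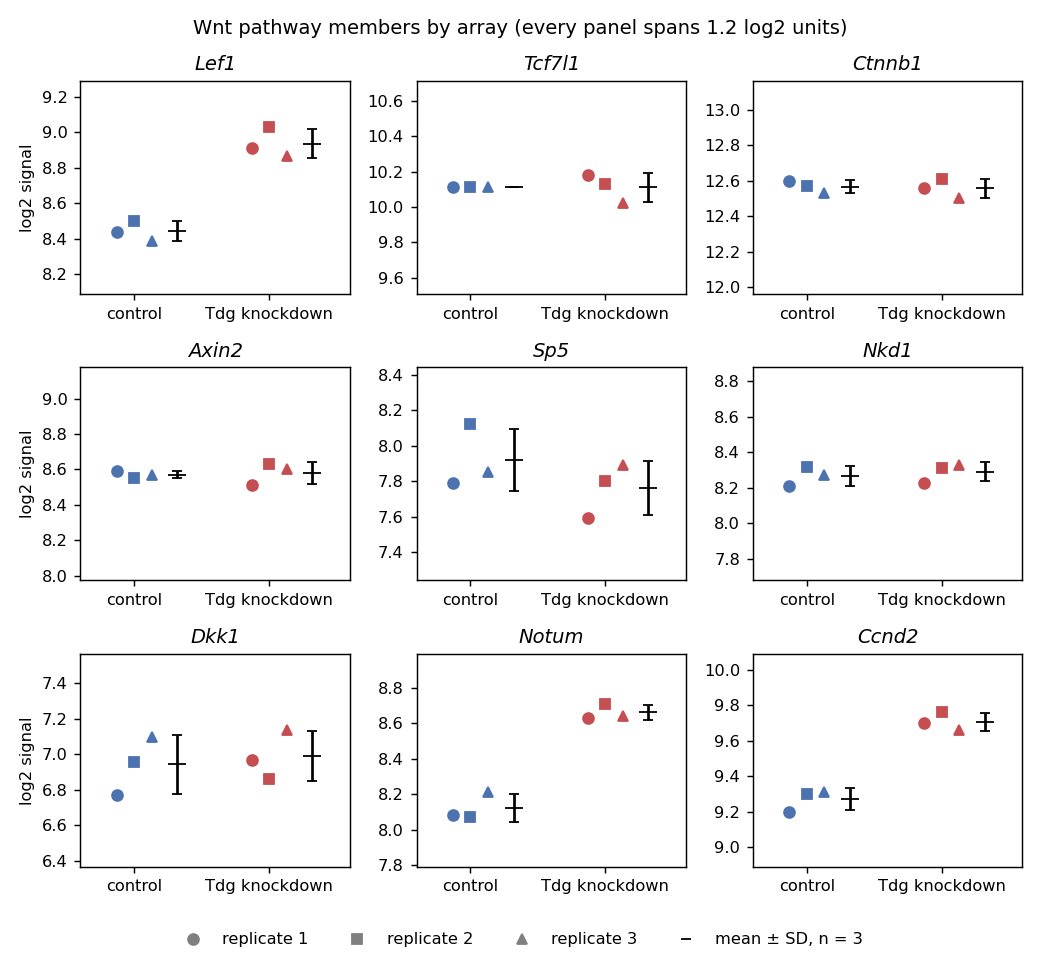
Log2 signal of the 9 measured members in each array, with control arrays in blue and Tdg knockdown arrays in red, and the mean with its SD (n = 3) in black. Every panel spans the same range, so heights of differences can be compared between panels. The groups are apart for Lef1, Notum and Ccnd2 and overlap for the other 6 members. Over all named genes the groups are apart for 19%, with 7.98% higher in knockdown cells.

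Lef1 encodes a DNA-binding protein of the TCF/LEF family that activates targets with beta-catenin and is itself a Wnt target. The gene lies on chromosome 3 (GRCm38.p6, 131110297 to 131224357). Its probe set gave log2 signals of 8.44, 8.50 and 8.39 in control replicates 1 to 3 and 8.91, 9.03 and 8.87 in knockdown replicates 1 to 3. The lowest knockdown array was above the highest control array, which held for 7.98% of all named genes. Replicate 2 was the highest of each group. The means were 8.44 ± 0.055 and 8.94 ± 0.083 (SD, n = 3 each), and the difference was 0.49 with a standard error of 0.070. By size this difference ranked 190 among the 19938 genes.

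Notum encodes a secreted carboxylesterase that removes the lipid from Wnt ligands and so inactivates them. On chromosome 11 (120653788 to 120661193), it gave 8.08, 8.07 and 8.21 in the control arrays and 8.63, 8.71 and 8.64 in the knockdown arrays. The groups did not overlap, and the closest arrays were control replicate 3 and knockdown replicate 1. From 8.12 ± 0.078 the mean moved to 8.66 ± 0.044 (SD, n = 3 each), a difference of 0.54 with a standard error of 0.067, which ranked 128 by size.

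Ccnd2 encodes cyclin D2, a partner of Cdk4 and Cdk6 in the passage through G1 and a target of several growth pathways besides Wnt. On chromosome 6 (127125162 to 127152188), its signals were 9.20, 9.30 and 9.31 in control and 9.70, 9.76 and 9.66 in knockdown arrays. The groups did not overlap, and the spread within each, 0.11 and 0.10, was well under the distance between the means. Those means were 9.27 ± 0.061 and 9.71 ± 0.050 (SD, n = 3 each), and the difference of 0.44 (SE 0.065) ranked 310.

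The adjusted p of these 3 genes over all named genes (limma), 0.0288 for Notum, 0.0360 for Lef1 and 0.0400 for Ccnd2, are the values that led to their choice and are given only to describe it. With the replicate number as a block the values were 0.0223, 0.0196 and 0.0281. The differences between arrays of the same number were 0.47, 0.53 and 0.48 for Lef1, 0.55, 0.64 and 0.43 for Notum, and 0.50, 0.46 and 0.35 for Ccnd2. For Notum and Ccnd2 the smallest of these was that of replicate 3.

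The calls rest on nearly every array, while the size of the differences changed little. Leaving out 1 array at a time gave 0.45 to 0.53 for Lef1, 0.515 to 0.585 for Notum and 0.40 to 0.46 for Ccnd2. All 3 calls were lost without control replicate 1, 2 or 3 or knockdown replicate 1 or 2, with adjusted p (limma) between 0.0921 and 0.234, and all 3 were kept without knockdown replicate 3. With each array centred on its median only Notum passed (0.0299), and Lef1 (0.0568) and Ccnd2 (0.0692) did not.

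**Figure D2:**
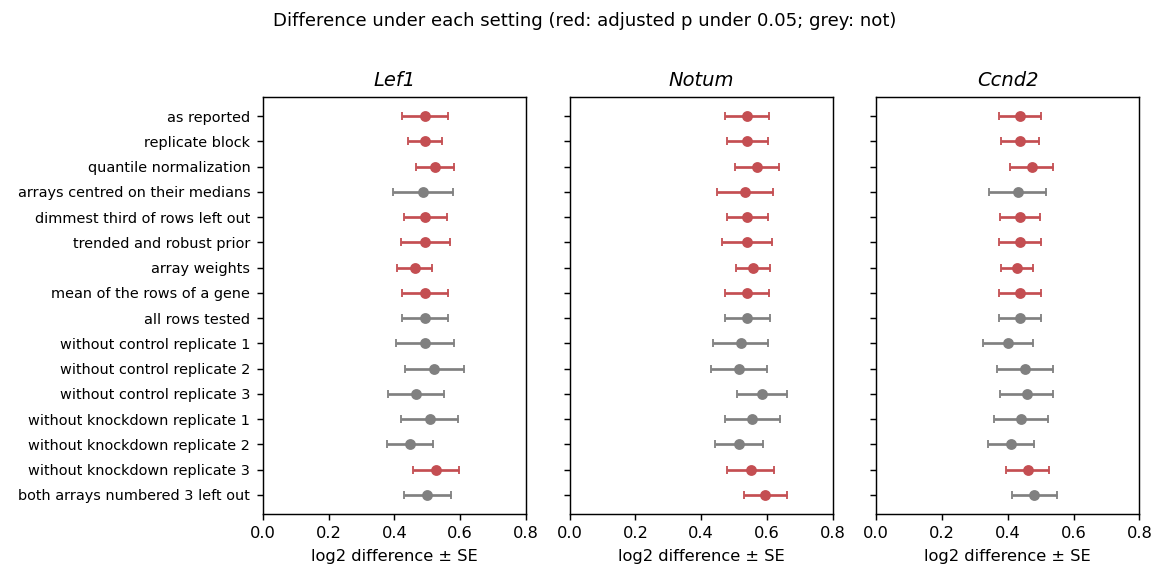
Log2 difference between knockdown and control (horizontal axis) with its standard error for Lef1, Notum and Ccnd2, under the reported setting and the 15 alternatives (vertical axis). Red points have an adjusted p under 0.05 over the features tested and grey points do not; the differences lie between 0.40 and 0.595 throughout.

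Knockdown replicate 3 stood apart from the other arrays on the first principal component of the named genes, which held 58.6% of the variance, at 31.0 against -17.5 to 5.2. Without it the differences of Lef1, Notum and Ccnd2 were 0.53, 0.55 and 0.46. In that array Lef1 and Ccnd2 had their lowest signal of the knockdown group.

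The other measured member of the TCF/LEF family, Tcf7l1, encodes the family's main repressor in embryonic stem cells. It read 10.11 in each of the control arrays and 10.18, 10.13 and 10.02 in the knockdown arrays, which lay on both sides of the control value. The difference was 0.00, with a 95% interval of -0.15 to 0.15 in the fit. The signal of Ctnnb1, which encodes the pathway's effector beta-catenin, was 12.60, 12.57 and 12.53 in control and 12.56, 12.61 and 12.50 in knockdown cells. Its groups overlapped, and the difference was -0.01 (95% interval -0.16 to 0.14, limma adjusted p 0.968). Beta-catenin is regulated mainly as a protein, which the arrays do not measure.

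Axin2, a scaffold of the destruction complex and a widely used readout of Wnt signalling, gave 8.59, 8.55 and 8.57 in control and 8.51, 8.63 and 8.60 in knockdown arrays. The control values lay inside the range of the knockdown values. The difference was 0.01 (95% interval -0.14 to 0.16, limma adjusted p 0.968). This interval ended below the differences of Lef1, Notum and Ccnd2, as did that of every other measured member that did not pass. Since Lef1, Notum and Ccnd2 were selected on having passed, nothing is read from that contrast. Nkd1, which encodes a Dishevelled-binding inhibitor, read 8.21, 8.32 and 8.27 in control and 8.23, 8.31 and 8.33 in knockdown cells. It too overlapped, with a difference of 0.02 (95% interval -0.13 to 0.17, limma adjusted p 0.917).

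Sp5 encodes a zinc finger factor that is a direct Wnt target and dampens other targets. Its signals of 7.79, 8.12 and 7.85 in control and 7.59, 7.80 and 7.89 in knockdown arrays overlapped, with a spread of 0.33 and 0.30 within the groups. The difference of -0.16 had a 95% interval from -0.43 to 0.11 (limma adjusted p 0.663). It was -0.37 with array weights (0.0581) and -0.06 without control replicate 2, the range over the alternatives, and passed in none of them. Dkk1, which encodes a secreted antagonist of the LRP co-receptors, was likewise variable, at 6.77, 6.96 and 7.10 in control and 6.97, 6.86 and 7.14 in knockdown cells. Its difference was 0.05 (95% interval -0.21 to 0.30, limma adjusted p 0.901). The control SD of Sp5 was above that of 87.9% of named genes and that of Dkk1 above that of 85.8%, and their intervals were the widest of the members measured.

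**Figure D3:**
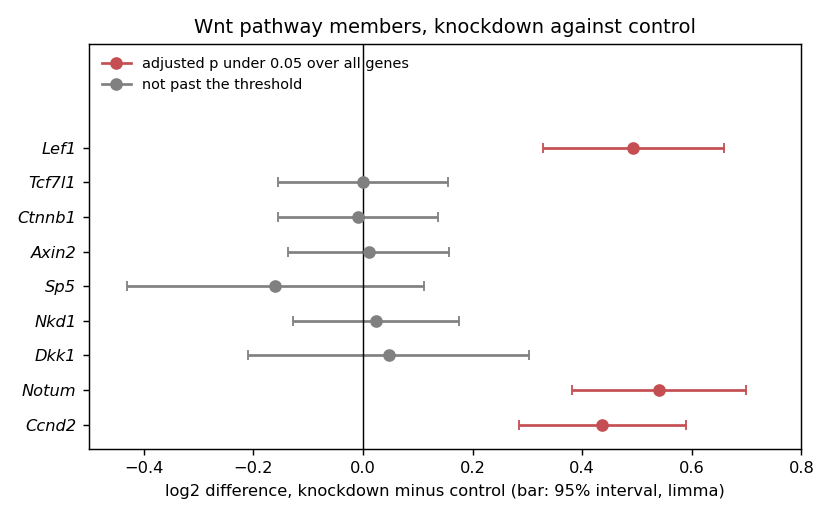
Log2 difference, knockdown minus control (horizontal axis), for each measured member (vertical axis), with the 95% interval of the fit across all genes. The red points, Lef1, Notum and Ccnd2 at 0.49, 0.54 and 0.44, are the genes past the adjusted p threshold, and the grey points lie between -0.16 and 0.05.

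The patterns most like those of the called members were taken as the 3 genes with the highest Pearson correlation of log2 signal over the 6 arrays, as a description. For Lef1 these were Usp17lb (0.999), Ppp1r15a (0.998) and Ppp4r1 (0.997). For Notum they were Nos1 (0.997), Porcn (0.997) and Srrt (0.996), and for Ccnd2 they were Mrpl18 (0.997), Nagpa (0.996) and Inhbb (0.995). With so few arrays, which all these genes share, high values are not rare. Of 19938 named genes, 568, 496 and 531 had a correlation over 0.9 with Lef1, Notum and Ccnd2. These 3 were selected on a difference between the groups, so genes with a like difference correlate with them. Usp17lb has near-identical relatives in the genome, which makes its own signal uncertain.

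The rest of the pathway was read from lists by role that do not contain the members. Of 144 listed genes 141 were measured, and 2 passed the threshold (1.42%, against 0.792% of all named genes): Porcn rose and Fzd7 fell. The median difference over the 141 was 0.01 and that of all named genes 0.02. At an unadjusted p under 0.05 (limma) stood 20 of the 141, and 2494 of the 19938 named genes. Groups did not overlap for 32 of the 141, 14 higher and 18 lower in knockdown cells (22.7%). Over all named genes that share was 19%, with 7.98% higher and 11% lower. With the replicate number as a block 10 passed, 4 higher and 6 lower, where 3.08% of all named genes passed, 1.07% as higher and 2.01% as lower.

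Porcn encodes the acyltransferase that attaches the lipid to Wnt ligands, the group that Notum removes. It read 9.61, 9.65 and 9.74 in control and 10.09, 10.20 and 10.11 in knockdown arrays. The groups were apart, with a difference of 0.47 (SE 0.067, limma adjusted p 0.0369). Among the other 8 measured genes of ligand secretion and agonists none passed, and Wls, the carrier that takes Wnt ligands to the cell surface, showed -0.49 (SE 0.15, limma adjusted p 0.222, or 0.0392 with the replicate block). Wls is named after its values were seen.

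Fzd7, a Frizzled receptor, read 10.86, 10.92 and 10.88 in control and 10.39, 10.56 and 10.40 in knockdown arrays. Every knockdown array was below every control array, with a difference of -0.44 (SE 0.070, limma adjusted p 0.0499). Of the 15 receptor genes it was the only one past the threshold, and Fzd2, named after its values were seen, showed -0.35 (limma adjusted p 0.0985, blocked 0.0368). The call of Fzd7 was lost without any 1 of the 6 arrays (limma adjusted p 0.0514 to 0.286), and that of Porcn without any array but knockdown replicate 3 (0.111 to 0.244). Centring the arrays ended both calls (0.0793 and 0.0570).

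None of the 19 ligand genes passed (limma, 3 at an unadjusted p under 0.05). The smallest p were those of Wnt7b, at 7.95, 8.01 and 8.07 in control and 7.52, 7.67 and 7.65 in knockdown cells, and Wnt3, at 7.47, 7.42 and 7.25 against 6.99, 7.08 and 6.96. Both had groups that did not overlap. Wnt7b showed -0.40 (limma adjusted p 0.0624, blocked 0.0296) and Wnt3 -0.37 (0.0980, blocked 0.0395). The list's median was 0.05, with 13 genes above 0 and 6 below.

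Among 16 extracellular inhibitors apart from Dkk1 and Notum none passed (limma, 0 at an unadjusted p under 0.05), and the smallest p were those of Sfrp1 (-0.18) and Sfrp2 (-0.13), which bind Wnt ligands. Of 22 genes of the destruction complex and Dishevelled none passed (limma, 2 at an unadjusted p under 0.05), with a list median of -0.05. Csnk1g1, a casein kinase, showed -0.26 (limma adjusted p 0.288) and Fbxw11, a subunit of the ubiquitin ligase that recognises marked beta-catenin, -0.16 (0.329).

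The 19 nuclear partners held no gene past the threshold (limma, 3 at an unadjusted p under 0.05). Tcf7l2, which encodes another TCF/LEF protein, read 9.07, 9.07 and 9.09 in control and 8.73, 8.74 and 8.55 in knockdown arrays. Its groups did not overlap and its difference was opposite in sign to that of Lef1, at -0.40 (SE 0.072, limma adjusted p 0.0645, blocked 0.0383). Hipk2, a nuclear kinase, showed 0.34 (0.0770, blocked 0.0453). Of the 3 measured TCF/LEF genes, Lef1 passed as higher, Tcf7l1 stood at 0.00, and Tcf7l2, at -0.40, passed in 6 of the 15 alternatives, the replicate block among them, but not in the reported fit.

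Of 23 further Wnt target genes none passed (limma, 4 at an unadjusted p under 0.05), with a median of 0.03. The homeobox gene Gbx2 showed 0.34 (limma adjusted p 0.0563, blocked 0.0369) and the receptor gene Tnfrsf19 -0.26 (0.127, blocked 0.0628). Of 8 genes known to be held down by Tcf7l1 in embryonic stem cells none passed (limma, 2 at an unadjusted p under 0.05), with a median of 0.01. Nr0b1, an orphan nuclear receptor of the pluripotency network, showed 0.38 (limma adjusted p 0.0520, blocked 0.0306) and the T-box gene Tbx3 -0.20 (0.232). Among 10 measured genes of D-type cyclins and their partners, Ccnd2 left aside, none passed (limma, 0 at an unadjusted p under 0.05). The smallest p were those of the cell cycle inhibitor genes Cdkn1c (0.13) and Rb1 (-0.16).

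**Figure D4:**
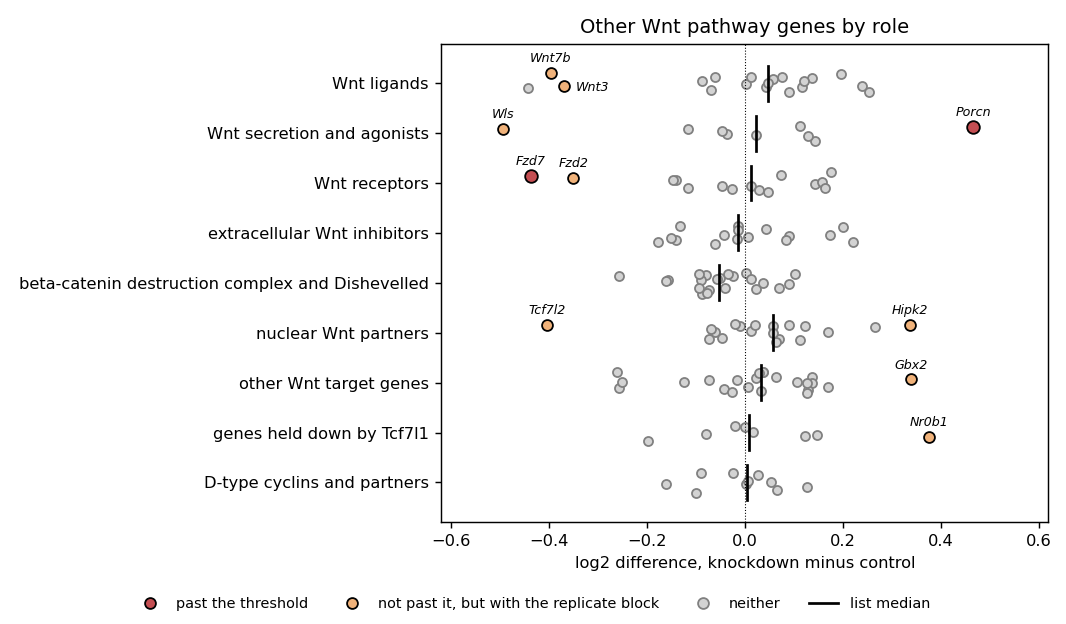
Log2 difference, knockdown minus control (horizontal axis), of the 141 measured pathway genes that are not members, by role (vertical axis). Red points passed the threshold (Porcn at 0.47 and Fzd7 at -0.44), orange points did not pass it in the reported fit but did with the replicate number as a block, and black bars are list medians, which lie between -0.05 and 0.06.

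Marker lists gave the cell types that the cultures could hold. The 8 embryonic stem cell markers had a mean log2 signal of 11.98 to 12.04 in control and 11.96 to 12.07 in knockdown arrays, on arrays with medians of 7.41 to 7.48, and none passed (limma, 0 at an unadjusted p under 0.05). The smallest p were those of Sox2 (-0.10) and Lin28a (0.09). Primitive streak markers had means of 7.18 to 7.36 and 7.28 to 7.50, endoderm markers 7.28 to 7.43 and 7.23 to 7.44, and fibroblast markers 6.67 to 6.86 and 6.72 to 7.01. None of the 8 genes in each of these lists passed (limma, 0, 2 and 0 at an unadjusted p under 0.05). The smallest p among streak markers were those of Mesp1 (0.24) and Mesp2 (0.13), and among fibroblast markers those of Postn (0.06) and Twist1 (0.09). Of the endoderm markers, Hnf4a showed -0.46 (limma adjusted p 0.0673) and passed with the block (0.0360), and Dab2 showed -0.30 (0.196, blocked 0.0858). The mean of the 2 probe sets of Dab2 differed by only -0.035 (limma adjusted p 0.891). Of 8 neural markers, with means of 8.48 to 8.57 in control and 8.56 to 8.65 in knockdown arrays, Pax6 rose by 0.93 (limma adjusted p 0.0145), and with the block 3 were higher and 1 lower. The lower one was Nes, at -0.60 (limma adjusted p 0.0845, blocked 0.0246), and Neurod1 showed -0.48 (0.195, blocked 0.0572). Besides Pax6, those higher were Tubb3 at 0.36 and Map2 at 0.37 (limma adjusted p 0.124 and 0.137, blocked 0.0423 for each). Nes, Neurod1, Tubb3 and Map2 are named after their values were seen. Of the neural markers 5 had an unadjusted p under 0.05 (limma). Groups did not overlap for 5, with 3 higher and 2 lower (62.5%, against 19% of all named genes). Whether cells of another type have a part in the differences of Lef1, Notum and Ccnd2 was not tested.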

How the data were processed

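The assay was an Affymetrix whole-transcript array, with 1 array for each of the 6 samples. The authors deposited log2 signals per probe set. Affymetrix Expression Console is the tool that the submitters' processing notes name. Its version, and how probes were summarised and arrays normalized, is not given in the sources used here. That the scale is log2 was inferred from the values, which lie between 2.26 and 14.03.

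Of 35557 rows the platform annotation lists 1 gene for 21789, and 21698 of these were matched by gene identifier to RefSeq (GRCm38.p6). Other rows stayed unnamed. Knockdown was compared with control over 19938 named genes with limma 3.58.1 in R 4.3.3 (lmFit, eBayes, two-sided, Benjamini-Hochberg, threshold 0.05), and the procedure was tested on simulated data. The number of arrays limits the precision.

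Arrays of equal replicate number correlated at 0.615, 0.233 and 0.704 in their deviations from the group means. As each exceeded 0.1, the criterion used, the numbers were taken to pair the samples, though no label says so. Arrays of unequal number were not compared, so the criterion cannot tell pairing from other variation that arrays share. The main model nevertheless has no block, so calls given without mention of the block ignore any such pairing. It called 158 genes, against 614 with the block.

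The members and lists were chosen with earlier results of these data known. Named are the members, Tdg, up to 4 called genes per list and direction (where none was called, the 2 of smallest p), and the 3 genes most like each called member, unless said to be named after their values were seen. Alternatives were a replicate block, 2 other normalizations (quantile and median centring), leaving out the rows below a quantile of mean level, array weights, a prior both trended and robust, averaging a gene's rows, adjusting over all rows, and omitting each array in turn.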

Additional observations from a re-analysis of the deposited data

How the results depend on the processing

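Genes called (158), members called (3) and other pathway genes called (2) were recomputed under 15 alternatives. With the replicate block the counts were 614, 3 and 10. Genes called numbered 351 with dim rows left out, 446 with a trended and robust prior, 1822 with array weights and 17 with all rows tested. Other pathway genes called numbered 5 with quantile normalization, 7 with dim rows left out and 7 with the trended prior, and 16 with array weights. With arrays centred on their medians 1 member (Notum) and 0 other pathway genes passed (limma, 3 and 17 at an unadjusted p under 0.05). With all rows tested 0 and 0 passed (3 and 20), where the adjustment covers 35557 rows. Without both arrays numbered 3, chosen after seeing the data, 1 member and 1 other pathway gene passed. Leaving out 1 array gave 0 to 290 genes, 0 to 3 members and 0 to 5 other pathway genes (limma). Each time 3 members, which were selected on having passed, and at least 16 other pathway genes had an unadjusted p under 0.05. All named genes under it numbered 1682 without control replicate 1 and 1510 without control replicate 2. Other pathway genes under it then numbered 17 and 18. Lef1, Notum and Ccnd2 kept their direction throughout. Leaving out arrays could not have reversed it, since every knockdown array lay above every control array for these genes. Array weights were estimated gene by gene, since the default estimate could not be fitted to convergence. The replicate block changed no member's call. Signal over background was not analysed here.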
